A study of Mus musculus with 4 samples.

Results

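The miR-17 and miR-18 seed families comprised 8 miRNA precursor genes in small RNA libraries of flow-sorted stroma from around the wolffian duct of E10.5 mouse embryos. They were chosen by name and not by level. They are the 6 genes whose 5p miRNA carries the miR-17 seed (Mir17, Mir20a, Mir106a, Mir20b, Mir106b and Mir93) and the 2 with the miR-18 seed (Mir18 and Mir18b), out of 643 miRNA genes and 2976 rows in the table. All 8 had a row. The 4 libraries formed 1 group: CD1 embryos of genotype Tbx18-Cre;CAG-tdTomato, described by the submitters as wild type, from which Tbx18-positive cells were collected by flow sorting. Cre marks cells in which the Tbx18 promoter has been active, together with their descendants, so the sorted cells are a lineage and need not all express Tbx18 at the time of collection. No treatment or second genotype was measured, so each comparison is between genes within a library. It is not stated if separate embryos or pools supplied the libraries. Each SD and p-value thus covers only the variation among these 4, which can be technical.

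A miRNA acts mainly through its seed, bases 2 to 8 of the mature strand, which pairs with target mRNAs. miRNAs that share a seed can therefore repress overlapping sets of targets. The miR-17 and miR-18 seeds occur in 3 paralogous clusters, each transcribed as a common precursor from which several hairpins are cut. The miR-17/miR-92 cluster is known for promoting proliferation and cell survival in development and cancer, and in the mouse it is required in nephron progenitors for normal kidney formation. The miR-106b/miR-25 cluster lies within Mcm7, which encodes a subunit of the replicative helicase, and the miR-106a/miR-363 cluster is on the X chromosome.

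The mature 5p sequences show why the 8 genes form 2 families, and how little separates the copies. Below, each is written 5′ to 3′ from RefSeq (GRCm38.p6), with the seed in capitals.
miR-17-5p: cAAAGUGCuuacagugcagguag
miR-20a-5p: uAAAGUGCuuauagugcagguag
miR-106a-5p: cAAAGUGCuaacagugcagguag
miR-20b-5p: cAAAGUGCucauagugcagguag
miR-106b-5p: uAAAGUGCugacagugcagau
miR-93-5p: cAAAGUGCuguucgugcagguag
miR-18a-5p: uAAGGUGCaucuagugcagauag
miR-18b-5p: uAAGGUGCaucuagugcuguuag
Positions are counted from 1 at the 5′ end. Within the seed the families differ by a single substitution, A4G from miR-17-5p to miR-18a-5p. The 6 miR-17 seed sequences were identical at 15 of the 21 positions they all have, and their 15 pairs differed at 1 to 5 positions. miR-106a-5p differs from miR-17-5p by U10A alone. miR-20b-5p differs from miR-20a-5p by U1C and U10C, and miR-18b-5p from miR-18a-5p by A18U and A20U. The 2 strands within a hairpin were counted as 1 row, so a gene's level includes its 3p strand, which has another seed. No source used here says how reads matching several genes were assigned, and with so few differing bases the split between copies is uncertain.

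On GRCm38 the chromosome 14 genes lie on the plus strand in the order Mir17 (gene ID 723905, 84 nt, 115043671 to 115043754), Mir18 (387135, 96 nt, 115043851 to 115043946) and Mir20a (387139, 107 nt, 115044157 to 115044263). In the GENCODE vM21 annotation all 3 overlap an exon of Mir17hg, the host transcript. Their paralogs keep that order on the minus strand of the X chromosome, as Mir106a (723829, 65 nt, 52742503 to 52742567), Mir18b (100124431, 83 nt, 52742331 to 52742413) and Mir20b (723923, 80 nt, 52742113 to 52742192). On the minus strand of chromosome 5 lie Mir106b (723925, 82 nt, 138165737 to 138165818) and Mir93 (723885, 88 nt, 138165523 to 138165610). In the same annotation Mir106b lies in an intron of Mcm7, and Mir93 overlaps an Mcm7 exon. TPM divides reads by the length of the gene, and the hairpins differ in length mostly outside the mature 5p strand, shown in capitals for the longest hairpin, the shortest, and Mir17.
Mir20a: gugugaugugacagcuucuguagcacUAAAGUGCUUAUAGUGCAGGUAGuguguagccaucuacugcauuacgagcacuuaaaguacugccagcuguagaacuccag
Mir106a: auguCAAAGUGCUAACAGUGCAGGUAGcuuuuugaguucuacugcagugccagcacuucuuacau
Mir17: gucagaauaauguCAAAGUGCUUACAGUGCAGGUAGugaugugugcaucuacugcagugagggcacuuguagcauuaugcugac

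The 4 libraries were unequal in depth. The reads behind the miRNA genes could be recovered from TPM and gene length, and ranged from 146255 in library 4 to 1087240 in library 2. Of lists of cell type markers, mesenchymal miRNAs summed to between 331 and 2373 TPM, with Mir199a-2 and Mir214 listed at 0, epithelial miRNAs to between 54.6 and 188 TPM, endothelial Mir126a to between 251 and 528 TPM and blood cell miRNAs to between 4.51 and 21.1 TPM, with Mir486 and Mir223 listed at 0. Neural miRNAs stood out in library 3, at 3082 TPM, against 351, 37.6 and 98.1 TPM in libraries 1, 2 and 4. In such bulk samples, fewer cells of a type and less RNA per cell cannot be told apart.

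Mir17 and Mir20a, of the chromosome 14 cluster, led the miR-17 seed family by mean. Mir17 had 130.1, 371, 692 and 75.5 TPM in libraries 1 to 4, a mean of 317 ± 281 TPM (SD, n = 4). Mir20a had 83.3, 254, 521 and 62.9 TPM, a mean of 230.4 ± 212 TPM (SD, n = 4). In TPM both were highest in library 3 and lowest in library 4. As shares of the miRNA total both were lowest in library 1, with Mir17 at 0.306%, 0.567%, 1.12% and 0.461% and Mir20a at 0.196%, 0.388%, 0.844% and 0.384% in libraries 1 to 4. Without library 3 their means were 192 and 133 TPM. Mir17 was above Mir20a in each library, by a mean of 0.46 ± 0.16 log2 units of TPM + 1 (SD, n = 4), but the longer Mir20a hairpin lowers its TPM. In recovered reads, with no division by length, the mean difference was 0.12, and in library 4 Mir20a had more reads, 726 against 684 for Mir17.

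Mir93 and Mir106b, of the cluster within Mcm7, were the steadiest of the family. Mir93 had 113, 233, 377 and 108 TPM in libraries 1 to 4, a mean of 208 ± 127 TPM (SD, n = 4). Mir106b had 95.5, 197, 223 and 68.2 TPM, a mean of 146 ± 75.5 TPM (SD, n = 4). Their coefficients of variation (SD over mean) were 61.0% and 51.8%, against 88.6% for Mir17 and 92.0% for Mir20a. Over the 170 miRNA genes with a mean of at least 10 TPM the median coefficient was 58.8%, with quartiles at 48.5% and 69.0%. Mir106b lay below Mir93 in each library, by a mean log2 ratio of -0.47 ± 0.27 (SD, n = 4).

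Mir20b and Mir106a, of the X-linked cluster, were the lowest miR-17 seed genes and the most uneven. Mir20b had 4.89, 20.6, 138 and 10.8 TPM in libraries 1 to 4, a mean of 43.6 ± 63.3 TPM (SD, n = 4). Mir106a had 0.541, 1.42, 16.3 and 2.85 TPM, a mean of 5.28 ± 7.40 TPM (SD, n = 4). Library 3 held most of both, and without it the means were 12.1 TPM for Mir20b and 1.61 TPM for Mir106a. Their coefficients of variation were 145% and 140.3%. The Mir106a values rest on 9, 19, 203 and 20 reads. The exact Poisson 95% interval in library 1 was 0.248 to 1.03 TPM and in library 3 it was 14.1 to 18.7 TPM, so counting error alone does not span the gap. These intervals cover counting error only. The high values of library 3 stood beside its neural marker sum of 3082 TPM. Of the 9 neural genes with a row, 1 was at 1 TPM or more in all libraries and Mir124a-1 was listed at 0. Their part in the result was not tested.

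The Mir106a level carries a further limit. Its hairpin shares 5 bases with the row of Kis2, a long noncoding RNA named here after its values were seen, and 1 of these is the first base of miR-106a-5p. Of 80 miRNA genes that overlap another row of the table, 43 were listed at 0 in all libraries (53.8%), against 160 of the 563 that overlap none (28.4%). Kis2 itself had at most 0.00193 TPM. No other of the 8 genes overlapped a row by RefSeq coordinates. In GENCODE vM21, however, Mir17, Mir18 and Mir20a overlap an exon of Mir17hg, which has a row, so the same limit may apply to them. No source used here gives the counter's annotation or its rule for reads over 2 genes. Mcm7, whose exon Mir93 overlaps in GENCODE vM21, has no row, but more genes entered the scaling than are used here. The limit may therefore apply to Mir93 as well. A loss of reads at such overlaps, of Mir106a, Mir93 or the chromosome 14 genes, was not tested.

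The miR-18 seed family repeated the order of the clusters at a lower level. Mir18, the source of miR-18a on chromosome 14, had 14.5, 37.8, 56.0 and 15.4 TPM in libraries 1 to 4, a mean of 30.9 ± 19.9 TPM (SD, n = 4). Mir18b, on the X chromosome, had 0.942, 3.16, 23.2 and 6.59 TPM, a mean of 8.47 ± 10.1 TPM (SD, n = 4). Mir18 was above Mir18b in each library, by a mean of 2.14 ± 1.12 log2 units of TPM + 1 (SD, n = 4). Without library 3 the Mir18b mean was 3.57 TPM. The Mir18b values rest on 20, 54, 369 and 59 reads.

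**Figure D1:**
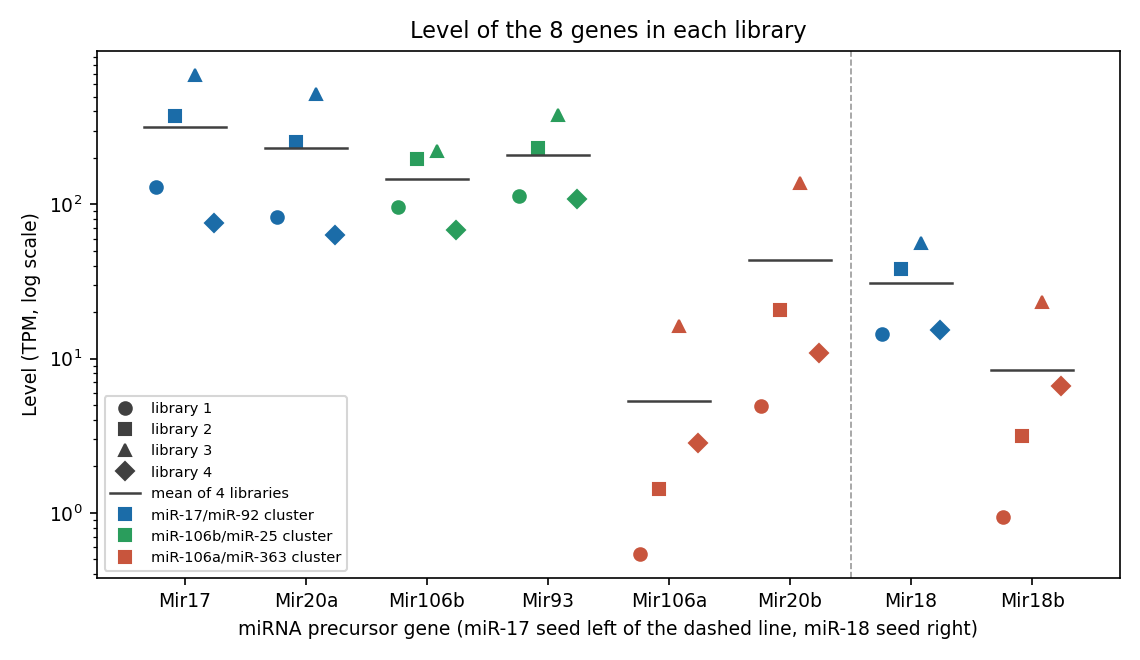
Level of each gene in TPM (log axis) in the 4 libraries, coloured by cluster, with a line at the mean of 4 libraries. The chromosome 14 and chromosome 5 genes of the miR-17 seed sit between 62.9 and 692 TPM, the X-linked Mir106a between 0.541 and 16.3 TPM, and library 3 gives the highest TPM of each gene.

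Of the 8 genes, 6 were at 1 TPM or more in all 4 libraries, where 33.1% of all miRNA genes were. The exceptions were Mir106a and Mir18b, both under 1 TPM in library 1 only. Among the 643 miRNA genes ranked by mean TPM, Mir17 was at place 31, Mir20a at 41, Mir93 at 45, Mir106b at 59, Mir20b at 106, Mir18 at 114, Mir18b at 176 and Mir106a at 197. The median of the 8 means was 94.7 TPM, against 37.4 TPM over the 213 miRNA genes that were at 1 TPM or more in all libraries. Places varied by library: Mir17 was at 62, 34, 16 and 45 in libraries 1 to 4, and Mir20b at 189, 139, 61 and 113. The order of neighbours was not secure throughout. Mir20a and Mir93 did not differ beyond their spread, with a mean log2 ratio of -0.15 ± 0.55 (SD, n = 4) and Mir20a higher in 2 of 4 libraries. By mean share of the miRNA total, Mir93 at 0.473% was above Mir20a at 0.453%. Mir20b and Mir18 did not differ beyond their spread either, at -0.36 ± 1.16 (SD, n = 4), with Mir20b higher in library 3 alone.

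Summed over its 6 genes, the miR-17 seed reached 427, 1078, 1968 and 328 TPM in libraries 1 to 4, a mean of 950.2 ± 755 TPM (SD, n = 4), or 611 TPM without library 3. As shares of the miRNA total these were 1.00%, 1.65%, 3.19% and 2.00%. The miR-18 seed summed to 15.4, 41.0, 79.2 and 22.0 TPM, a mean of 39.4 ± 28.7 TPM (SD, n = 4), or 26.1 TPM without library 3. These were 0.0363%, 0.0626%, 0.128% and 0.134% of the miRNA total. Both seeds were thus lowest in library 1 by share, where the miR-17 seed was lowest in library 4 by TPM. The miR-17 seed exceeded the miR-18 seed by 4.70, 4.68, 4.62 and 3.84 log2 units of summed TPM + 1, a mean of 4.46 ± 0.41 (SD, n = 4). This ratio was close to constant in libraries 1 to 3 and lower in library 4. The sums cover 6 and 2 genes. Gene by gene, Mir17 lay 3.04 ± 0.59 log2 units above Mir18 (SD, n = 4), in 4 of 4 libraries.

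The clusters divided the miR-17 seed unequally. Mir17 and Mir20a together had 548 ± 493 TPM, Mir106b and Mir93 had 354 ± 199 TPM, and Mir106a and Mir20b had 48.8 ± 70.6 TPM (SD, n = 4). Without library 3 these means were 326, 272 and 13.7 TPM. The chromosome 14 pair exceeded the chromosome 5 pair by 0.04, 0.54 and 1.02 log2 units in libraries 1 to 3 and lay below it at -0.35 in library 4, a mean of 0.31 ± 0.59 (SD, n = 4). The difference between those clusters was therefore within the spread, and its mean was 0.08 without library 3 and 0.53 without library 4. The chromosome 14 pair exceeded the X-linked pair by 4.01 ± 1.05, and the chromosome 5 pair exceeded the X-linked pair by 3.70 ± 1.30 (SD, n = 4), in 4 of 4 libraries each.

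In recovered reads, the chromosome 14 cluster supplied 52.2%, 60.3%, 64.2% and 44.7% of the miR-17 seed in libraries 1 to 4. The chromosome 5 cluster supplied 46.7%, 37.9%, 29.0% and 51.7%, and the X-linked cluster 1.12%, 1.79%, 6.82% and 3.59%. The chromosome 5 share was lowest in library 3 and highest in library 4. The Wilson 95% intervals of the X-linked share were 0.931% to 1.35% in library 1, 1.62% to 1.99% in library 2, 6.56% to 7.09% in library 3 and 2.99% to 4.29% in library 4, and did not overlap.

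The X-linked copy also took a larger share of each paralog pair of the miR-17 and miR-18 seeds in libraries 3 and 4. Mir18b supplied 5.32%, 6.75%, 26.4% and 27.1% of miR-18 seed reads in libraries 1 to 4. The Wilson 95% interval of the last, from 218 reads, was 21.6% to 33.3%. Mir20b supplied 4.20%, 5.70%, 16.5% and 11.4% of the reads of Mir20a and Mir20b. Mir106a supplied 0.321%, 0.296%, 1.79% and 2.84% of the reads of Mir17 and Mir106a. In each of these pairs the intervals of libraries 3 and 4 lay above those of libraries 1 and 2. In the listed reads, Mir19b-2 and Mir19b-1, a further X-linked and chromosome 14 pair with another seed, showed no such rise. The 3p strand of Mir19b-1 is named miR-19b-3p, without the copy number its 5p strand has, so Mir19b-2 may yield the same strand. How reads matching several genes were assigned is not stated, so this pair cannot show if its X-linked share rose. Mir19b-2 had 62, 211, 254 and 21 reads in libraries 1 to 4, and Mir19b-1 had 52, 128, 177 and 18. The grouping of the libraries was made after the shares were seen. The marker list for pluripotent or germ cells, the miR-302/miR-367 and miR-290/miR-295 miRNAs, was highest in libraries 3 and 4. Library 2, however, lay closer to library 4 than to library 1. The list summed to 1.04, 16.1, 33.8 and 20.6 TPM in libraries 1 to 4, with Mir291a, Mir294 and Mir295 listed at 0. Of its 9 genes with a row, 0 were at 1 TPM or more in all libraries. Its part in the result was not tested.

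**Figure D2:**
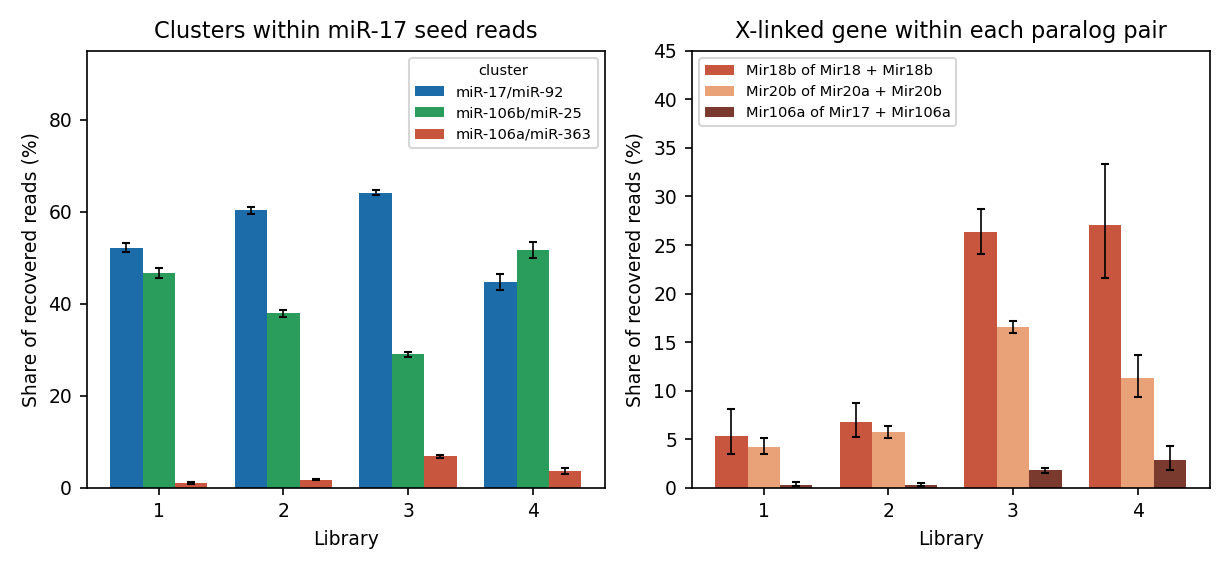
Share of recovered reads in percent by library, with Wilson 95% intervals for counting error. In the left panel the miR-106b/miR-25 share of miR-17 seed reads runs between 29.0% and 51.7%, and in the right panel the X-linked Mir18b takes 26.4% and 27.1% of miR-18 seed reads in libraries 3 and 4, against 5.32% and 6.75% in libraries 1 and 2.

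Gene pairs were compared as log2 ratios of TPM + 1 within each library. Paralogs at the same place in the clusters differed by large ratios: Mir17 exceeded Mir106a by 6.41, 7.26, 5.33 and 4.31 log2 units in libraries 1 to 4, a mean of 5.83 ± 1.28 (SD, n = 4). Mir20a exceeded Mir20b by 3.84, 3.57, 1.91 and 2.44, a mean of 2.94 ± 0.92 (SD, n = 4). Both ratios were smaller in libraries 3 and 4 than in libraries 1 and 2. Mir106b exceeded Mir106a by 5.05 ± 1.31, while Mir17 exceeded Mir106b by 0.78 ± 0.65 (SD, n = 4), with 1.63 in library 3 and 0.15 in library 4. Without library 3 the last mean was 0.50.

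In TPM, the order of hairpins differed between the paralogous clusters. On chromosome 14 Mir17 exceeded Mir20a, but from recovered reads the mean log2 ratio was 0.12 ± 0.17 (SD, n = 4) and Mir20a was higher in library 4. On the X chromosome Mir106a lay below Mir20b, with log2 ratios of -1.93, -3.15, -3.01 and -1.61 in libraries 1 to 4. The mean was -2.43 ± 0.77 (SD, n = 4), or -3.25 from recovered reads. The difference of these ratios, Mir106a/Mir20b minus Mir17/Mir20a, was -2.89 ± 0.83 (SD, n = 4) and negative in 4 of 4 libraries; it was added after the values were seen. Mir106a also lay below Mir18b, at -0.64 ± 0.29 (SD, n = 4), or at -1.24 from recovered reads and -0.24 with a pseudocount of 10 TPM. These ratios all involve Mir106a, whose overlap with Kis2 is described above. A comparison without Mir106a, Mir20a/Mir20b minus Mir18/Mir18b, also added later, was 0.80 ± 0.41 (SD, n = 4) and positive in 4 of 4 libraries. Its size depends on the pseudocount of 1 TPM, since Mir18b had only 0.942 and 3.16 TPM in libraries 1 and 2. By plain TPM, Mir20b made up 5.54% and 7.48% of its pair there, close to 6.10% and 7.73% for Mir18b. In libraries 3 and 4 Mir20b made up 20.9% and 14.6%, against 29.3% and 30.0% for Mir18b.

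Of the ratios between genes, 12 were tested: 10 chosen pairs and the 2 differences of ratios added later. None of these 12 changed sign between libraries, whereas Mir20a/Mir93 and Mir20b/Mir18, given above for the order of levels and not tested, did. An exact permutation test that flips signs, two-sided, gave p = 0.125 for each of the 12, and 0.125 after Benjamini-Hochberg adjustment. With 4 libraries no smaller value is possible, so a threshold of 0.05 was out of reach. The sums over chosen genes were not tested.

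**Figure D3:**
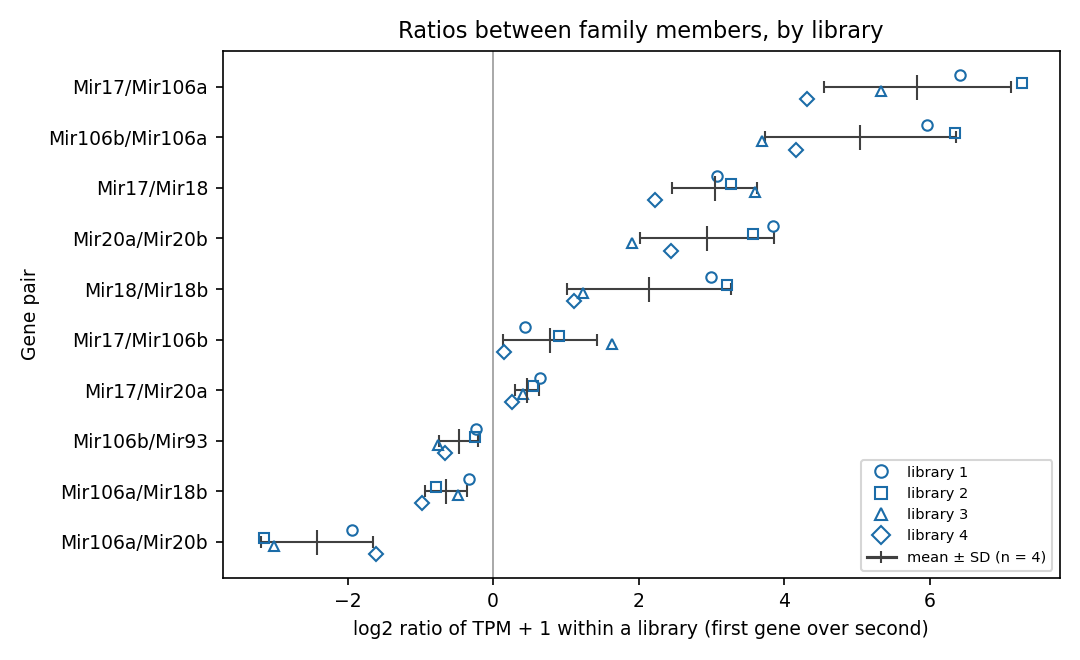
log2 ratio of TPM + 1 between the genes of each pair, first gene over second, with a point per library and the mean ± SD (n = 4). All points of a pair lie on the same side of 0, from Mir17/Mir106a at a mean of 5.83 to Mir106a/Mir20b at -2.43.

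Across the libraries, the loci deviated from their means to different extents. In centred log2(TPM + 1), the chromosome 5 pair ran from -0.82 in library 4 to 0.94 in library 3, and the chromosome 14 pair from -1.48 in library 4 to 1.65 in library 3. The X-linked pair ran from -1.90 in library 1 to 2.69 in library 3. Mir18b lay at 0.29 in library 4, where Mir18 lay at -0.74. In TPM the chromosome 14 and chromosome 5 pairs ranked the libraries alike and were lowest in library 4, and the X-linked genes were lowest in library 1. As shares of the miRNA total, the chromosome 14 pair took 0.502%, 0.955%, 1.97% and 0.844% in libraries 1 to 4 and the chromosome 5 pair 0.490%, 0.657%, 0.972% and 1.08%. On that scale both were lowest in library 1, and the chromosome 5 pair was highest in library 4.

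**Figure D4:**
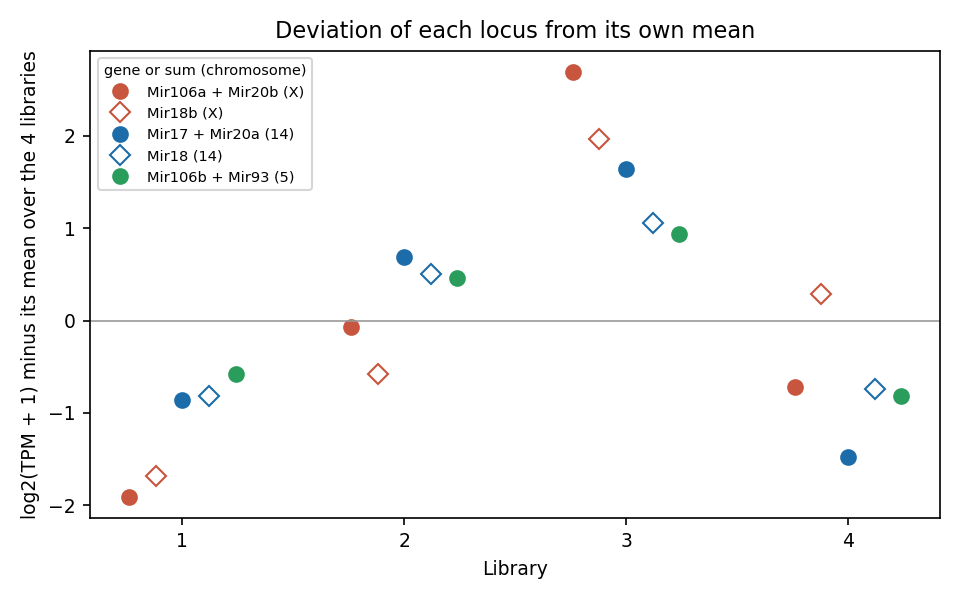
log2(TPM + 1) of each locus minus its mean over the 4 libraries, which have no order. The X-linked pair spans -1.90 to 2.69 and the chromosome 5 pair -0.82 to 0.94, and in library 4 Mir18b at 0.29 lies above the other loci.

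Other genes of the clusters, which carry other seeds, are given for scale. Mir25, of the chromosome 5 cluster, averaged 837 ± 504 TPM, and Mir19a, of the chromosome 14 cluster, 161 ± 74.8 TPM (SD, n = 4). Mir19a had 67.7, 135, 204 and 236 TPM in libraries 1 to 4 and was highest in library 4, unlike Mir17 and Mir20a of its cluster. Mir363, last in the X-linked cluster, had 11.8, 52.0, 230.4 and 50.6 TPM in libraries 1 to 4 and was, like Mir20b and Mir106a, highest in library 3. Mir92-2, also of the X-linked cluster, averaged 1080.1 ± 632 TPM (SD, n = 4), at place 9 by mean among the 643 miRNA genes. As listed, the low levels of Mir106a, Mir18b and Mir20b thus do not hold for every gene of their cluster. The 3p strand of Mir92-1, of the chromosome 14 cluster, is named miR-92a-3p, without the copy number its 5p strand has. Mir92-2 may therefore yield the same strand. How reads matching several genes were assigned is not stated, so part or all of the Mir92-2 level may belong to chromosome 14. Mir19b-2, on the X chromosome, averaged 8.30 ± 6.74 TPM and Mir19b-1, on chromosome 14, 5.51 ± 4.15 TPM (SD, n = 4). The split of this pair is uncertain for the same reason. Mir92-1, on chromosome 14 and wholly within the Mir17hg row, was listed at 0. Mir17hg itself had at most 0.0317 TPM.

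The nearest profiles among the 164 other miRNA genes with a mean of at least 10 TPM were sought by the root mean square difference of centred log2(TPM + 1) over the 4 libraries. For the miR-17 seed sum these were Mir15b at 0.19, Mir186 at 0.19, Mir10a at 0.22, Mir10b at 0.28 and Mir218-1 at 0.28 log2 units, against a median of 0.84 over all 164. For the miR-18 seed sum they were Mir218-1 at 0.30, Mir135b at 0.31, Mir7-1 at 0.31, Mir301 at 0.32 and Mir101b at 0.40, against a median of 0.94. The families themselves lay 0.36 apart. All these profiles share the same 4 libraries and their depth, and the measure is a description.

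Genes with related seeds were at low levels. The RefSeq table lists 9 genes with a mature strand of exactly either seed, of which 8 are those described here, and the ninth, Mir6383, was not analysed here. Another 9 rows carry a seed that holds AAGUGC, the hexamer at bases 3 to 8 of the miR-17 seed, at the same place or shifted by a base. The highest by mean TPM are shown, with the seed in capitals.
miR-302b-3p: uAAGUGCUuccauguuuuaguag
miR-350-5p: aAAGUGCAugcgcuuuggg
Mir302b, of an early embryo cluster, had 0.581, 9.33, 18.1 and 13.7 TPM in libraries 1 to 4, and Mir350 had 1.82, 3.14, 11.4 and 1.12 TPM. Mir302d averaged 3.00 ± 2.89 TPM, and Mir290a 0.0314 ± 0.0628 TPM (SD, n = 4). The 9 rows summed to 2.40, 15.0, 36.6 and 17.3 TPM, against 427, 1078, 1968 and 328 TPM for the miR-17 seed. Of the 9, 5 were listed at 0, and 4 of those overlap another row, so that sum may be understated.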

How the data were processed

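Small RNA was sequenced in 4 libraries of sorted cells. The authors deposited TPM, in which a gene's reads are corrected for its length and scaled to a fixed total. The columns sum to 2.33% to 7.22% of that total, so more genes entered the scaling than are used here. GRCm38 (mm10) is the build per the submitters' processing notes, which list limma without a version. No source used here gives the aligner, counter or annotation. Of 2976 rows, 2541 were matched by gene ID to RefSeq (GRCm38.p6), which also gave the sequences.

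For nonzero miRNA genes, multiplying TPM by gene length gave, up to 1 factor in each library, a whole number in 100% of values within 0.01, and these are the recovered reads. No count model was fitted. Ratios used a pseudocount of 1 TPM, which understates those of low genes, and were tested by exact sign-flip permutation. The steps were tested on simulated data. Genes, lists and rules were chosen with earlier results of these data known. The text names the 8 genes, their cluster companions and hosts, genes with the same seeds, the 4 highest with a seed holding AAGUGC, and the 5 nearest profiles of each seed sum. Alternatives covered pseudocount, scaling, length, filters and each library left out. Tools were matplotlib 3.10.9, scipy 1.17.1, pandas 2.3.3, numpy 2.4.6 and Python 3.11.15.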

Additional observations from a re-analysis of the deposited data

Results flagged for a closer look

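In groups of 4, a library was singled out where its gap to the nearest other, over the whole range, passed Dixon's 95% critical value. Of 37 values examined, 4 passed, and chance passes about 1 in 20. They were not independent, since the X-linked sum contains the other X-linked values. Library 3 stood apart for Mir20b at 138 TPM, against 4.89, 20.6 and 10.8 TPM in libraries 1, 2 and 4. It stood apart for Mir106a at 16.3 TPM and for the sum of both genes at 154 TPM. Library 4, the shallowest, stood apart for the log2 ratio of the miR-17 seed to the miR-18 seed, at 3.84 against 4.62 to 4.70 in the others.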

How the results depend on the processing

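No paired analysis was possible because the libraries form 1 group. All 70 alternatives of the 10 planned gene ratios kept their sign, but most could not have changed it. Each ratio had the same sign in all 4 libraries, so neither leaving out a library nor changing the pseudocount could reverse it. Only recovered reads, not corrected for length, could have done so. None reached 0.05, which was out of reach with 4 libraries. Of 45 alternatives of the 6 ratios between sums, all kept their sign and 44 moved by less than the SD. Those that leave out a library could not move by more. The ratio of Mir106a and Mir20b to Mir18b was 1.15 with a pseudocount of 10 TPM, against 1.96. Mir17/Mir20a was 0.12 from recovered reads not corrected for length, against 0.46, and the pseudocount moved Mir106a/Mir20b to -2.92 at 0.1 TPM and -1.28 at 10 TPM. At 10 TPM, Mir18/Mir18b was 1.16 and Mir106b/Mir106a 3.31, against 2.14 and 5.05. By median over libraries, Mir20b was at 15.7, Mir106a at 2.14 and Mir18b at 4.88 TPM. All 48 alternatives of the levels and 33 of the sums moved by less than the SD, which for the X-linked genes exceeds the mean. Most could not have failed, because leaving out a library, or taking the median, always moves a mean of 4 by less than its SD. Only rescaling and the filter on the mean could have moved further. The number of genes at the detection level was 8 at 0.1 TPM, 5 at 10 TPM, 7 at 10 recovered reads, and 6 to 8 with a library left out. Low counts limit Mir106a and Mir18b most, with 9 and 20 reads in library 1. That was not the shallowest library, with 883201 miRNA reads against 146255 in library 4.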
